A study of Mus musculus with 38 samples.

Results

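The muscle compared here was the gastrocnemius of young, wild-type male C57BL/6JRj mice (12 to 13 weeks old), taken on day 5 after an injection of 50 µL of 20 µM cardiotoxin, a snake venom toxin that lyses muscle fibres and spares most of their stem cells. All of these mice had received the vehicle, 1% sodium carboxymethyl cellulose, by daily gavage. The members were chosen by their labels: 5 libraries of injured muscle and 6 libraries of the uninjured muscle of the other leg, called contralateral, which is 11 of the 38 libraries of the series. They came from 6 mice, 5 of which gave both legs. The remaining libraries, from aged vehicle mice and from mice given nicotinamide and pyridoxine (NAM/PN), entered the fit and are used only for the comparison at the end. Other limits of the model are that the contralateral leg belongs to an animal whose opposite leg was injured, that every library is whole muscle, and that day 5 was the only time sampled.

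Skeletal muscle repairs itself through muscle stem cells (MuSCs), which lie beneath the basal lamina of the fibre and are marked by the transcription factor Pax7. After the fibres die, macrophages clear the remains, stem cells divide, leave the cell cycle and fuse, and the new fibres first make embryonic and neonatal forms of the contractile proteins and of the acetylcholine receptor. Fibroblast-like cells lay down a transient matrix at the same time. Transcripts were read from their 3′ ends, and the values below are CPM, each library's counts set to a common total after scaling by TMM (a trimmed mean of the log ratios between libraries). Differences are log2 fold changes of injured over contralateral muscle with their standard error (n = 5 and n = 6), and a gene was called higher or lower at an adjusted p under 0.05. In whole muscle, fewer cells of a type and less RNA per cell cannot be told apart.

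The 11 libraries held 4032414 to 6742277 counts. Those of injured muscle detected more genes (14623 to 15516) than those of contralateral muscle (13141 to 13854). The 50 most abundant genes took 39.8% to 46.1% of the counts in injured and 61.3% to 63.0% in contralateral muscle. TMM factors were 1.36 to 1.59 and 0.746 to 0.820, so the scaling matters: with library totals alone the median of all genes moved up by 0.94 on the log2 scale, and the calls became 8326 higher and 799 lower. Muscle identity was plain in both groups, since the fast myosin heavy chain Myh4 was abundant in every library. Contralateral replicates 1 and 3 also carried liver transcripts: albumin (Alb) stood at 225 and 507 CPM there, and at 0 to 3.97 CPM in the other 9 libraries. The summed CPM of 25 liver genes, a list written after these values were seen, was 69.8 to 113 in injured and 8.41 to 2248 in contralateral muscle. Of these genes, 22 were called lower after injury (5 without contralateral replicate 1 and 4 without contralateral replicate 3, and 6 with the mouse as a block), with overlapping groups in every case, and these 22 are included in the counts of lower genes over all genes below. Slow-fibre transcripts were also uneven between contralateral muscles, as described with the contractile genes.

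Across 12610 genes tested, 3698 (29.3%) were higher and 3306 (26.2%) lower in injured muscle. By the stricter rule of a fold significantly above 2, 1782 (14.1%) were higher and 799 (6.34%) lower. In 4930 genes (39.1%) every injured value lay on the same side of every contralateral value. Injured replicate 2 gave its 50 most abundant genes the largest share of that group (46.1%), and without it 3643 genes were higher and 3233 lower. Without contralateral replicates 1 and 3 the counts were 3338 and 2932. The shares of all genes are the background for each list below, and the plot of level against fold change shows the asymmetry: 373 genes had a log2 fold change over 4 and 51 had one under -4, of which 20 belong to the liver list. The lists name pathways and cell types and hold 1305 genes, of which 102 were not tested for low counts.

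**Figure D1:**
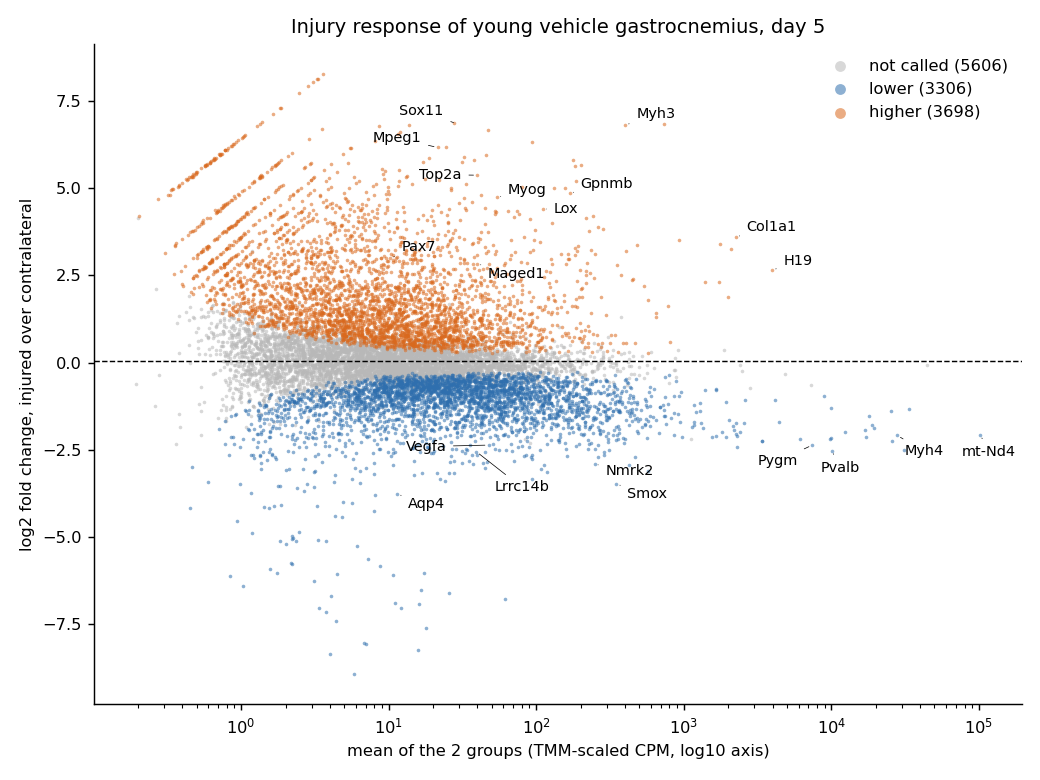
Log2 fold change of injured over contralateral muscle (vertical axis) against the mean of both groups' CPM on a log10 axis for all 12610 tested genes. Orange points are the 3698 genes called higher, blue points the 3306 called lower and grey points the rest; the dashed line marks the all-gene median of 0.05, and labelled genes are described in the text. With library totals as the only scaling, this median moved to 0.99.

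Of the genes that rose, the 12 with the smallest p were led by Maged1, an adaptor of the MAGE family, and held several genes of growing neurites and muscle precursors, among them Map1b, a microtubule-associated protein, and Bex1. Map1b (ENSMUSG00000052727, chromosome 13, 99421446 to 99516540, minus strand) measured 359, 275, 376, 391 and 306 CPM in the injured muscles against 37.4, 55.3 and 68.3 CPM in the contralateral muscles (lowest, median and highest, as for every gene below). The injured values stood close together, well above the contralateral range (log2 fold change 2.66 ± 0.23, adjusted p = 1.12e-10). S100a6, a calcium-binding protein of dividing cells, measured 819, 565, 802, 879 and 764 CPM after injury and 124, 139 and 199.5 CPM in the contralateral leg. Its groups were equally far apart (log2 fold change 2.38 ± 0.19, adjusted p = 4.14e-11). Sox11, a transcription factor of progenitor cells, had the largest fold of the genes that qualified, with 43.4, 46.1, 64.5, 60.6 and 58.4 CPM in injured and 0, 0.377 and 1.14 CPM in contralateral muscle. No injured library came near the highest contralateral value (log2 fold change 6.89 ± 0.67, adjusted p = 4.3e-10).

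At the other end stood enzymes, channels and regulators of resting fibres. Lrrc14b, a leucine-rich repeat protein, had the smallest p of all genes, and Pink1, the kinase that marks damaged mitochondria for removal, measured 72.6, 149, 98, 135 and 118 CPM in the injured muscles against 357, 432 and 612 CPM in the contralateral muscles. The highest injured value, in replicate 2, was still far below the lowest contralateral one (log2 fold change -1.98 ± 0.19, adjusted p = 3.84e-10). Smox, the spermine oxidase of polyamine breakdown, measured 21.9, 119, 47, 18.4 and 79.9 CPM after injury and 286, 699 and 959.7 CPM in the contralateral leg. Injured muscle was lower throughout, and both groups were broad (log2 fold change -3.49 ± 0.52, adjusted p = 6.86e-07). Aqp4, the water channel of the fast-fibre membrane, measured 0.469, 2.74, 1.05, 1.61 and 1.8 CPM in injured and 14.2, 18.4 and 36.7 CPM in contralateral muscle. The injured muscles all lay far below the contralateral range (log2 fold change -3.78 ± 0.52, adjusted p = 1.98e-07). Amd2, a copy of the polyamine enzyme gene Amd1 whose reads may be shared with it, had the largest negative fold among qualifying genes (log2 fold change -3.81 ± 0.60, adjusted p = 1.87e-06).

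Muscle stem cell genes rose. Of 13 tested markers, 8 were higher and 0 lower, and the median log2 fold change was 1.59 against 0.05 for all genes. Pax7 itself (ENSMUSG00000028736, chromosome 4, 139737062 to 139833528, minus strand) measured 21.2, 15.5, 22.1, 6.93 and 25.6 CPM in the injured muscles against 0.509, 2.63 and 3.07 CPM in the contralateral muscles. The groups did not overlap, with injured replicate 4 well below the other injured muscles (log2 fold change 3.00 ± 0.34, adjusted p = 6.32e-09). Cdh15, the M-cadherin that holds the stem cell to its fibre, measured 29.1, 24.7, 33.4, 43.2 and 31.3 CPM after injury and 7.64, 11.1 and 13.2 CPM in the contralateral leg, again without overlap (log2 fold change 1.59 ± 0.20, adjusted p = 5.83e-08). The growth factor receptor Fgfr4 (3.52), the engulfment receptor Megf10 (3.13), the syndecan Sdc3 (2.34), the Notch target Heyl (1.72) and the laminin receptor Itga7 (1.50) were also higher. Myf5, the early myogenic factor, was called higher at low counts with overlapping groups (log2 fold change 2.45 ± 0.61, adjusted p = 0.000889). The receptor for hepatocyte growth factor, Met, did not pass the test (log2 fold change 0.06 ± 0.19, adjusted p = 0.818).

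Myog, or myogenin, the factor that commits myoblasts to differentiate, measured 106, 85, 108, 58.8 and 166 CPM in injured and 3.06, 3.32 and 6 CPM in contralateral muscle. Every injured muscle exceeded the contralateral maximum by several-fold, and replicate 5 was the highest (log2 fold change 4.74 ± 0.56, adjusted p = 1.2e-08). Myod1, which acts upstream of it, measured 23.7, 23.9, 18.7, 16.4 and 41.4 CPM in the injured muscles against 3.04, 10.2 and 20.5 CPM in the contralateral muscles. Its groups overlapped, since contralateral replicate 3 lay above injured replicates 3 and 4 (log2 fold change 1.34 ± 0.49, adjusted p = 0.0212), and the call was lost without contralateral replicate 5 or 6 or injured replicate 5 (adjusted p = 0.0552, 0.0558 and 0.0812). Myf6, the factor of mature fibres, did not pass (log2 fold change -0.13 ± 0.47, adjusted p = 0.833). Of 13 factors and cell cycle exit genes, 7 rose and 3 fell, the latter including Mef2c and Mef2d, regulators of fibre genes, both of which turned positive with library totals. Hes6, a promoter of myogenic differentiation, rose by 2.35. The cyclin-dependent kinase inhibitors Cdkn1a and Cdkn1c, which hold differentiating myoblasts out of the cell cycle, rose by 3.13 and 2.85. Cdkn1a measured 420.1, 391, 653, 356 and 416 CPM after injury and 12.2, 50.3 and 93.5 CPM in the contralateral leg, so even the lowest injured muscle was above the contralateral range.

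Fusion genes gave some of the clearest separations. Mymk, or myomaker, the membrane protein that every fusing myoblast needs, measured 183, 121, 238, 209 and 179 CPM in injured and 0.581, 2.07 and 4.57 CPM in contralateral muscle. The contralateral muscles were all near 0 by comparison (log2 fold change 6.34 ± 0.91, adjusted p = 3.86e-07). Mymx, or myomixer, its small partner, measured 14.4, 13.2, 21, 18.4 and 17.8 CPM in the injured muscles against 0, 0.112 and 0.291 CPM in the contralateral muscles. It had 3 counts in all contralateral libraries together, so no fold is given (adjusted p = 1.31e-08). In the fusion list 11 of 14 tested genes were higher and 1 lower. The adhesion molecule Cdh2 (3.87), the membrane repair protein Myof (2.85) and the guanine nucleotide exchange factor Dock5 (2.23) were among those higher, and the GTPase Rac1 was the lower gene (-0.61, positive with library totals).

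Forms of the contractile proteins that adult fast fibres lack had the highest median of the lists. Of 7 such genes 6 were higher, and the median was 5.63. Embryonic myosin heavy chain, Myh3 (ENSMUSG00000020908, chromosome 11, 67078300 to 67102291, plus strand), measured 1159.8, 495, 824, 623 and 880.3 CPM after injury and 3.78, 7.47 and 9.42 CPM in the contralateral leg. Neonatal myosin, Myh8, measured 2746, 1066, 1644, 444 and 1376 CPM in injured and 5.52, 8.14 and 27.5 CPM in contralateral muscle. Both were low in the contralateral leg, and injured replicate 1 was the highest for both (log2 fold change 6.82 ± 1.02, adjusted p = 8.47e-07 for Myh3; log2 fold change 6.84 ± 1.04, adjusted p = 1.03e-06 for Myh8). Tnnt2, the troponin T of heart and embryonic muscle, measured 412, 240.4, 462, 311 and 365 CPM in the injured muscles against 4.29, 6.52 and 10.7 CPM in the contralateral muscles (log2 fold change 5.63 ± 0.68, adjusted p = 1.82e-08). The cardiac actin Actc1 was already present in uninjured muscle at 141 to 711 CPM and reached 4459.7, 1789, 1778, 862 and 2706 CPM. Injured replicate 4 was nearest to the contralateral range (log2 fold change 2.32 ± 0.51, adjusted p = 0.000242).

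The acetylcholine receptor showed the exchange of its subunits. Chrng, the γ subunit of the embryonic receptor, measured 69.4, 69, 101, 139 and 87.2 CPM after injury and 0, 0.824 and 2 CPM in the contralateral leg. It was close to 0 in the contralateral leg (log2 fold change 6.69 ± 0.95, adjusted p = 3.56e-07). Chrne, the ε subunit that replaces it at the adult synapse, measured 2.66, 8.83, 4.21, 1.29 and 2.9 CPM in injured and 8.59, 13.4 and 26.2 CPM in contralateral muscle. Only injured replicate 2 reached the contralateral range (log2 fold change -1.89 ± 0.35, adjusted p = 2.73e-05). The shared subunits Chrna1 (4.00), Chrnd (3.71) and Chrnb1 (0.99) were higher, as was the adhesion molecule Ncam1 (3.88). Genes that build the synapse around the receptor did not pass: Musk, its organising kinase, had a log2 fold change of -0.72, Rapsn, its anchor, 0.05, and Ache, the esterase, -0.01. By voom Musk passed as lower (log2 fold change -0.85, adjusted p = 0.0258). With library totals Rapsn and Ache passed as higher (0.99 and 0.94, adjusted p = 3.44e-07 and 0.00892).

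The start regions of 3 of these genes are shown because they hold the E-box CAGCTG, the letters bound by Myod1 and myogenin. The sequences are the bases before the annotated start site, from RefSeq (GRCm38.p6), in the direction of transcription, with each CAGCTG in capitals. This motif is its own reverse complement.
Chrng (chr1:87205561-87205809, plus strand): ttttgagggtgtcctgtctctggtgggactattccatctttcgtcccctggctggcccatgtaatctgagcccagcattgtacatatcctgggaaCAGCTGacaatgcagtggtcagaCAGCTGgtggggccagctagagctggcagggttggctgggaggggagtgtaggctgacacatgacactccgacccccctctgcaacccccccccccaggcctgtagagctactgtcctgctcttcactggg
Chrna1 (chr2:73580339-73580588, minus strand): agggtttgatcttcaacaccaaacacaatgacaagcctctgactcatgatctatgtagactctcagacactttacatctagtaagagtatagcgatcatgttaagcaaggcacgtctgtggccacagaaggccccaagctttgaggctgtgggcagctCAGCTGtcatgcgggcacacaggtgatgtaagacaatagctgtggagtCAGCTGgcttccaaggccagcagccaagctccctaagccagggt
Tnnt2 (chr1:135836084-135836333, plus strand): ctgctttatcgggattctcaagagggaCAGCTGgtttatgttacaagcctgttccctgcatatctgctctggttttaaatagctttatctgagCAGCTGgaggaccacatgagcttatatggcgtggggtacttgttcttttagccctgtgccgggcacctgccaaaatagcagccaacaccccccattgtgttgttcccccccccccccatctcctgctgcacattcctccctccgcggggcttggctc

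Each of the 3 windows held 2 copies, between 44 and 223 bases before the start site. Among 30 genes called higher (the myogenic factor, fusion, developmental contractile and receptor lists), 20 had a window and 7 (35%) held CAGCTG within 250 bases, beside 12.1% of 9875 tested genes with a window. A match describes the letters only.

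**Figure D2:**
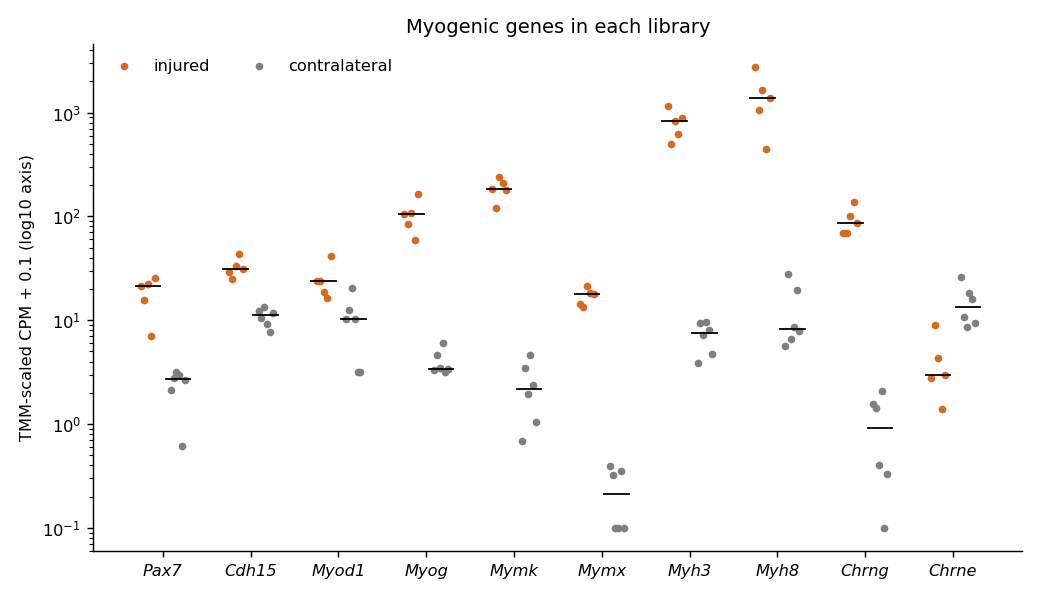
TMM-scaled CPM plus 0.1 on a log10 axis for 10 genes of the myogenic programme. Orange points are the 5 injured muscles, grey points the 6 contralateral muscles and bars the group medians. The groups overlap for Myod1 and Chrne and for no other gene shown; Chrne is lower and the others are higher after injury.

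Parentally imprinted genes, many of which act in fetal growth, rose. Of 18 tested, 16 were higher and 1 lower, with a median of 2.97. H19, a maternally expressed non-coding RNA of fetal muscle (ENSMUSG00000000031, chromosome 7, 142575529 to 142578143, minus strand), measured 9852, 5954, 7245, 5468 and 5879 CPM in the injured muscles against 718, 1017 and 1822 CPM in the contralateral muscles. It had the largest gain in mean CPM of the genes that qualified (log2 fold change 2.65 ± 0.42, adjusted p = 1.93e-06). Igf2, the paternally expressed growth factor next to it, measured 22.8, 11.4, 13.2, 6.12 and 8.7 CPM after injury and 0, 0.53 and 1.27 CPM in the contralateral leg. The ranges were far apart, at low counts (log2 fold change 4.39 ± 0.52, adjusted p = 1.44e-08). Mest, a hydrolase-like protein, measured 126, 32.1, 47.4, 23.2 and 81.7 CPM in injured and 0.291, 0.733 and 2.46 CPM in contralateral muscle (log2 fold change 5.75 ± 0.52, adjusted p = 1.67e-10). Peg3 (3.47), Plagl1 (4.08), Meg3 (2.38), Grb10 (3.07) and the inhibitor Cdkn1c named above followed. Dlk1, a Notch-like membrane protein, ran from 0.322 CPM in injured replicate 4 to 38.6 CPM in replicate 1. Its groups overlapped and it still passed the test (log2 fold change 3.28 ± 0.70, adjusted p = 0.000163). The lower gene was the amino acid transporter Slc38a4 (-1.26, a call lost with library totals).

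Genes of dividing cells rose. Of 36 tested mitosis genes, 35 were higher and 1 lower, and the median was 4.57 (4.42 with the 2 genes without any contralateral count at their lower bound). Top2a, the topoisomerase that untangles replicated chromosomes (ENSMUSG00000020914, chromosome 11, 98992943 to 99024189, minus strand), measured 64.5, 53.3, 116, 91.8 and 63.4 CPM in the injured muscles against 0.468, 1.38 and 5.14 CPM in the contralateral muscles. Mki67, the proliferation antigen, measured 23, 18.7, 43.9, 35.3 and 19.1 CPM after injury and 0, 0.452 and 2.46 CPM in the contralateral leg. In both genes injured replicate 3 was the highest and no contralateral muscle overlapped the injured ones (log2 fold change 5.38 ± 0.69, adjusted p = 5.13e-08 for Top2a; log2 fold change 5.14 ± 0.70, adjusted p = 1.45e-07 for Mki67). Cdk1, the kinase that starts mitosis, measured 9.53, 7.92, 9.6, 1.45 and 16.1 CPM in injured and 0, 0.117 and 1.34 CPM in contralateral muscle. Its injured replicate 4 fell to just above the contralateral maximum (log2 fold change 4.46 ± 0.78, adjusted p = 9.64e-06). Plk1, a kinase of the mitotic spindle, rose by 4.38. Aurka, the centrosomal aurora kinase, went the other way, with 2.81, 3.35, 4.47, 5.32 and 4.1 CPM in the injured muscles against 5.84, 7.75 and 11.7 CPM in the contralateral muscles. Injured values all lay below contralateral ones (log2 fold change -1.03 ± 0.34, adjusted p = 0.0106, a call lost with library totals), although the gene did not pass with the mouse as a block (adjusted p = 0.0553). Pttg1, or securin, which holds sister chromatids together until anaphase, was among the 12 lower genes with the smallest p (log2 fold change -1.86 ± 0.18, adjusted p = 3.84e-10).

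Genes of DNA replication rose as well, 25 of 31, with 1 lower and a smaller median of 1.55. Rrm2, the regulated subunit of ribonucleotide reductase, measured 2.66, 4.87, 10.4, 11.6 and 7 CPM after injury and 0, 0.112 and 0.764 CPM in the contralateral leg (log2 fold change 4.68 ± 0.75, adjusted p = 2.64e-06). Uhrf1, which carries methylation onto new DNA, had 1.22 to 6.8 CPM in injured muscle and 2 counts in the contralateral leg, and Mcm5, a subunit of the replicative helicase, rose by 2.71. Pcna, the sliding clamp, differed little, with 5.78, 8.68, 8.42, 11.8 and 6.3 CPM in injured and 3.71, 5.51 and 6.68 CPM in contralateral muscle. Its groups overlapped (log2 fold change 0.61 ± 0.21, adjusted p = 0.0119), and it did not pass without injured replicate 4 (adjusted p = 0.0679). Ung, a repair glycosylase, was the lower gene (-0.64, positive with library totals). Its call was lost with the mouse as a block (adjusted p = 0.171) and without any 1 of contralateral replicates 3 and 5 and injured replicates 1, 2 and 3 (adjusted p = 0.0527 to 0.130).

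Among 20 p53 targets and cell cycle inhibitors, 9 rose and 3 fell. Cdkn2a, the inhibitor tied to senescence, rose by 4.53, and Bbc3, a death-promoting BCL2-family member, by 1.52. The p53 antagonist Mdm2 did not pass (log2 fold change -0.34 ± 0.22, adjusted p = 0.201), while Ccng1, another p53 target, fell by 1.48 on the log2 scale. Mdm2 passed as lower by voom (-0.41, adjusted p = 0.022) and as higher with library totals (0.59, adjusted p = 0.0243).

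Windows of 3 mitosis genes are shown because they pair CCAAT, the letters bound by NF-Y, with TTTGAA, the core of the cell cycle homology region. Both were searched on both strands, so ATTGG and TTCAAA in capitals are the same motifs read from the other strand.
Cdk1 (chr10:69352939-69353162, minus strand): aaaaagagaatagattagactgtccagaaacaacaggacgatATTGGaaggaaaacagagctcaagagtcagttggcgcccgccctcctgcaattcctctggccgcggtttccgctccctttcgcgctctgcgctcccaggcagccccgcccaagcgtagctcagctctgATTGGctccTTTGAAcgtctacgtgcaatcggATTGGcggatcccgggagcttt
Ccnb2 (chr9:70421555-70421804, minus strand): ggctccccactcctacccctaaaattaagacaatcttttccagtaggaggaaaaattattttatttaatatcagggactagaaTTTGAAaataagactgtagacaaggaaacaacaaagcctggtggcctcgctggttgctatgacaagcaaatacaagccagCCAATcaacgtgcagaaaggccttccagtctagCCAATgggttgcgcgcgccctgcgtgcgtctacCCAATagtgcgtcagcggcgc
Top2a (chr11:99024190-99024439, minus strand): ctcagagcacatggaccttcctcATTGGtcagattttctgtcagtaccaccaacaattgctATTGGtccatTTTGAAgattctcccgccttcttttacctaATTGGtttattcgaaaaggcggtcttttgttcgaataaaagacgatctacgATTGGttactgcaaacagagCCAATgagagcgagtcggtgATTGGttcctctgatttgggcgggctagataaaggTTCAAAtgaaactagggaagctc

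Of 35 mitosis genes called higher, 30 had a window, and 23 (76.7%) held CCAAT, 10 (33.3%) held TTTGAA and 9 (30%) held both. The shares over 9875 tested genes were 35.7%, 10.3% and 3.84%. Ccnb2 itself, cyclin B2, was chosen after its values were seen and measured 4.57 to 7.5 CPM in injured and 0 to 0.307 CPM in contralateral muscle, the latter from 3 counts.

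Macrophage transcripts rose without exception: 21 of 21 tested markers were higher, all with groups that did not overlap, and the median was 4.24. Their summed level was 1709 to 2383 CPM in injured and 103 to 214 CPM in contralateral muscle. Mpeg1, the pore-forming protein of phagocytes (ENSMUSG00000046805, chromosome 19, 12460779 to 12465283, plus strand), measured 42.6, 36.5, 45.6, 27.9 and 59 CPM in the injured muscles against 0, 0.488 and 1.34 CPM in the contralateral muscles. The surface receptor Adgre1, known as F4/80, measured 45, 44, 52.1, 51.6 and 42 CPM after injury and 0.286, 2.53 and 3.8 CPM in the contralateral leg. The injured muscles were close to each other for Adgre1 and more spread for Mpeg1 (log2 fold change 6.18 ± 0.70, adjusted p = 5.94e-09 for Mpeg1; log2 fold change 4.24 ± 0.64, adjusted p = 9.37e-07 for Adgre1). Cx3cr1, the fractalkine receptor of patrolling and reparative macrophages, measured 66.4, 78, 132, 111 and 63.3 CPM in injured and 0.581, 1.38 and 2.46 CPM in contralateral muscle (log2 fold change 5.95 ± 0.65, adjusted p = 3.65e-09).

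Genes of lipid-handling macrophages followed, with 14 of 16 higher and 2 lower. Trem2, a lipid receptor, measured 26.9, 23.1, 45.4, 42.2 and 34.7 CPM in the injured muscles against 0.286, 0.818 and 1.79 CPM in the contralateral muscles (log2 fold change 5.28 ± 0.71, adjusted p = 1.33e-07). Gpnmb, a glycoprotein of phagocytes loaded with debris, measured 317, 216, 442, 458 and 199 CPM after injury and 5.21, 12 and 16.6 CPM in the contralateral leg (log2 fold change 4.86 ± 0.60, adjusted p = 2.86e-08). No injured muscle came near the contralateral range for either gene. Spp1, or osteopontin (5.87), Lgals3, or galectin-3 (5.22), and Apoe, the lipid carrier (3.39), were also higher. Lpl, the lipoprotein lipase that fibres and fat cells also make, was lower (-1.84, a call lost with library totals), as was Syngr1 (-1.16, a call lost with library totals).

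Markers of macrophages that live in resting muscle were divided. Mrc1, the mannose receptor (2.98), Folr2, a folate receptor (2.31), and F13a1, a clotting factor subunit (2.08), were higher. Lyve1, which marks perivascular macrophages and lymphatic vessels, measured 13.3, 24.1, 11.6, 16.9 and 18.5 CPM in injured and 8.57, 25.4 and 33.8 CPM in contralateral muscle. Its groups overlapped and it did not pass (log2 fold change -0.38 ± 0.41, adjusted p = 0.448). Cd163, a haemoglobin receptor, also did not (log2 fold change 0.45 ± 0.36, adjusted p = 0.303). Ly6c2, a marker of inflammatory monocytes, had no count in any contralateral library and measured 0.937, 3.65, 3.95, 6.93 and 3.1 CPM in the injured muscles. Ccr2, the receptor that brings monocytes from blood, measured 36.2, 39.4, 48.9, 33.7 and 51.5 CPM in the injured muscles against 2.28, 3.78 and 6.49 CPM in the contralateral muscles (log2 fold change 3.31 ± 0.51, adjusted p = 1.4e-06). All 7 of 7 tested monocyte genes were higher (3 with the mouse as a block in the 11 libraries alone), and the other 5 had too few counts to test. The filter can keep a low gene for its counts in injured libraries alone, which tilts such counts towards higher genes.

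Neutrophil transcripts were scarce. Of 7 tested markers 3 were higher (Csf3r, Retnlg and Mmp8) and 0 lower, beside 29.3% and 26.2% of all genes. The summed markers came to 8.81 to 14.4 CPM in injured and 6 to 19.9 CPM in contralateral muscle. S100a8, an abundant neutrophil protein, measured 1.09, 1.07, 0.789, 2.9 and 1.2 CPM after injury and 0.671, 1.47 and 3.82 CPM in the contralateral leg (log2 fold change -0.52 ± 0.82, adjusted p = 0.611). S100a9, its partner, gave log2 fold change -0.91 ± 0.90, adjusted p = 0.404. Neither passed, and the groups overlapped for both. For T and NK cells 5 of 6 tested genes were higher, beside 29.3% of all genes, and 10 of the 16 members had too few counts to test. As with the monocyte genes, the filter could keep low genes through injured libraries alone. Among those higher were the granule gene Nkg7 (2.83) and the kinase Lck, which had 0.7 to 1.71 CPM in injured muscle and 2 counts in the contralateral leg. With the mouse as a block in the 11 libraries alone 1 T and NK gene and 0 neutrophil genes passed. The defining chain Cd3e stayed at or below 0.234 CPM in every library and was not tested. Mast cell genes gave 1 call in 5, the receptor Kit (2.18).

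Antigen presentation rose, 13 of 14 genes being higher. H2-Ab1, the β chain of MHC class II, measured 296, 290.5, 325, 273 and 281 CPM in injured and 24, 37.9 and 47.9 CPM in contralateral muscle. The injured muscles were within a narrow band (log2 fold change 2.97 ± 0.30, adjusted p = 9.01e-10). Cd74, its chaperone, rose by 3.08 and Itgax, an integrin of dendritic cells and macrophages, by 5.53. The endothelial and dendritic factor Zbtb46 was the lower gene (-0.72, positive with library totals).

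Chemokines and their receptors rose in 19 of 24 tested (median 3.26), and in 12 with the mouse as a block in the 11 libraries alone. Ccl8, a monocyte attractant, measured 49.7, 73.2, 84.1, 107 and 58.8 CPM in the injured muscles against 0.224, 0.995 and 4.36 CPM in the contralateral muscles (log2 fold change 5.82 ± 0.64, adjusted p = 3.27e-09). Ccl2, the main ligand of Ccr2, measured 2.19, 3.96, 1.97, 1.77 and 7.5 CPM after injury and 0, 0.229 and 0.307 CPM in the contralateral leg and was low in both groups (log2 fold change 4.17 ± 0.80, adjusted p = 3.95e-05). Ccl11, the eosinophil attractant, was the lower gene (-1.88), a call lost with library totals and without any 1 of contralateral replicates 1, 2 and 3 and injured replicates 1 to 4 (adjusted p = 0.0584 to 0.157). Of 21 cytokine genes tested, 14 were higher and 1 lower, the latter Lifr, the receptor of leukaemia inhibitory factor (-1.30, a call lost with library totals). Tgfb1, the growth factor that drives matrix formation, measured 15.2, 12.3, 22.1, 24.2 and 13.4 CPM in injured and 1.53, 1.92 and 3.71 CPM in contralateral muscle (log2 fold change 2.90 ± 0.36, adjusted p = 3.08e-08). Il1b had 1 contralateral count and 0.625 to 3.3 CPM in injured muscle, and Il6 was too low to test.

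Complement and phagocytosis genes rose in 17 of 23, with 1 lower. C1qa, a chain of the first complement component, measured 308, 330.2, 557, 722 and 393 CPM in the injured muscles against 16.8, 25.5 and 32 CPM in the contralateral muscles. Injured replicate 4 was the highest and the groups were far apart (log2 fold change 4.22 ± 0.43, adjusted p = 1.07e-09). Its partners C1qb and C1qc rose by 3.78 and 3.51. In the lysosome list 23 of 31 were higher and 1 lower. Ctss, the cathepsin of antigen-presenting cells, was chosen after its values were seen and measured 284, 255, 395, 262 and 324 CPM after injury and 4.21, 8.49 and 14.8 CPM in the contralateral leg (log2 fold change 5.02 ± 0.68, adjusted p = 1.33e-07). The membrane protein Lamp1 did not pass (log2 fold change -0.13 ± 0.12, adjusted p = 0.344).

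Interferon-stimulated genes rose in 19 of 20, with none lower and a median of 1.90. Irf7, the factor that amplifies the response, measured 16.2, 11.4, 24.9, 20 and 21.2 CPM in injured and 0.872, 1.9 and 3.97 CPM in contralateral muscle (log2 fold change 3.10 ± 0.55, adjusted p = 1.25e-05). Isg15, a ubiquitin-like protein, measured 19.8, 8.22, 18.4, 13.2 and 16.6 CPM in the injured muscles against 1.84, 2.82 and 3.78 CPM in the contralateral muscles (log2 fold change 2.43 ± 0.49, adjusted p = 6.54e-05). Injured replicate 2 was the lowest of its group for both. Bst2, which tethers viruses, rose by 2.04. The windows of Isg15 and Ifit3 are shown because they hold the core of the interferon-stimulated response element, searched as GAAA, any 2 letters and GAAA on both strands.
Isg15 (chr4:156200819-156201068, minus strand): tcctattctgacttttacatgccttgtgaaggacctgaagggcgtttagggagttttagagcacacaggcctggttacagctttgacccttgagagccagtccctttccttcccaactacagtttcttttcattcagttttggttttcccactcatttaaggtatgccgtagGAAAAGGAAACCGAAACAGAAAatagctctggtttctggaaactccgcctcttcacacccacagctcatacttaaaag
Ifit3 (chr19:34583279-34583528, plus strand): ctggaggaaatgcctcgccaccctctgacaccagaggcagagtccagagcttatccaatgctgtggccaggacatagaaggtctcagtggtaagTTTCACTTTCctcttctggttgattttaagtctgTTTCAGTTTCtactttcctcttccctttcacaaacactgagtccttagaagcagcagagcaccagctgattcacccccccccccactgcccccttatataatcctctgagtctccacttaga

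The 3 matches in Isg15 overlap each other, and those of Ifit3 are read from the other strand. Of 19 interferon-stimulated genes called higher, 14 had a window and 6 (42.9%) held the motif, beside 2.66% of all 9875.

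**Figure D3:**
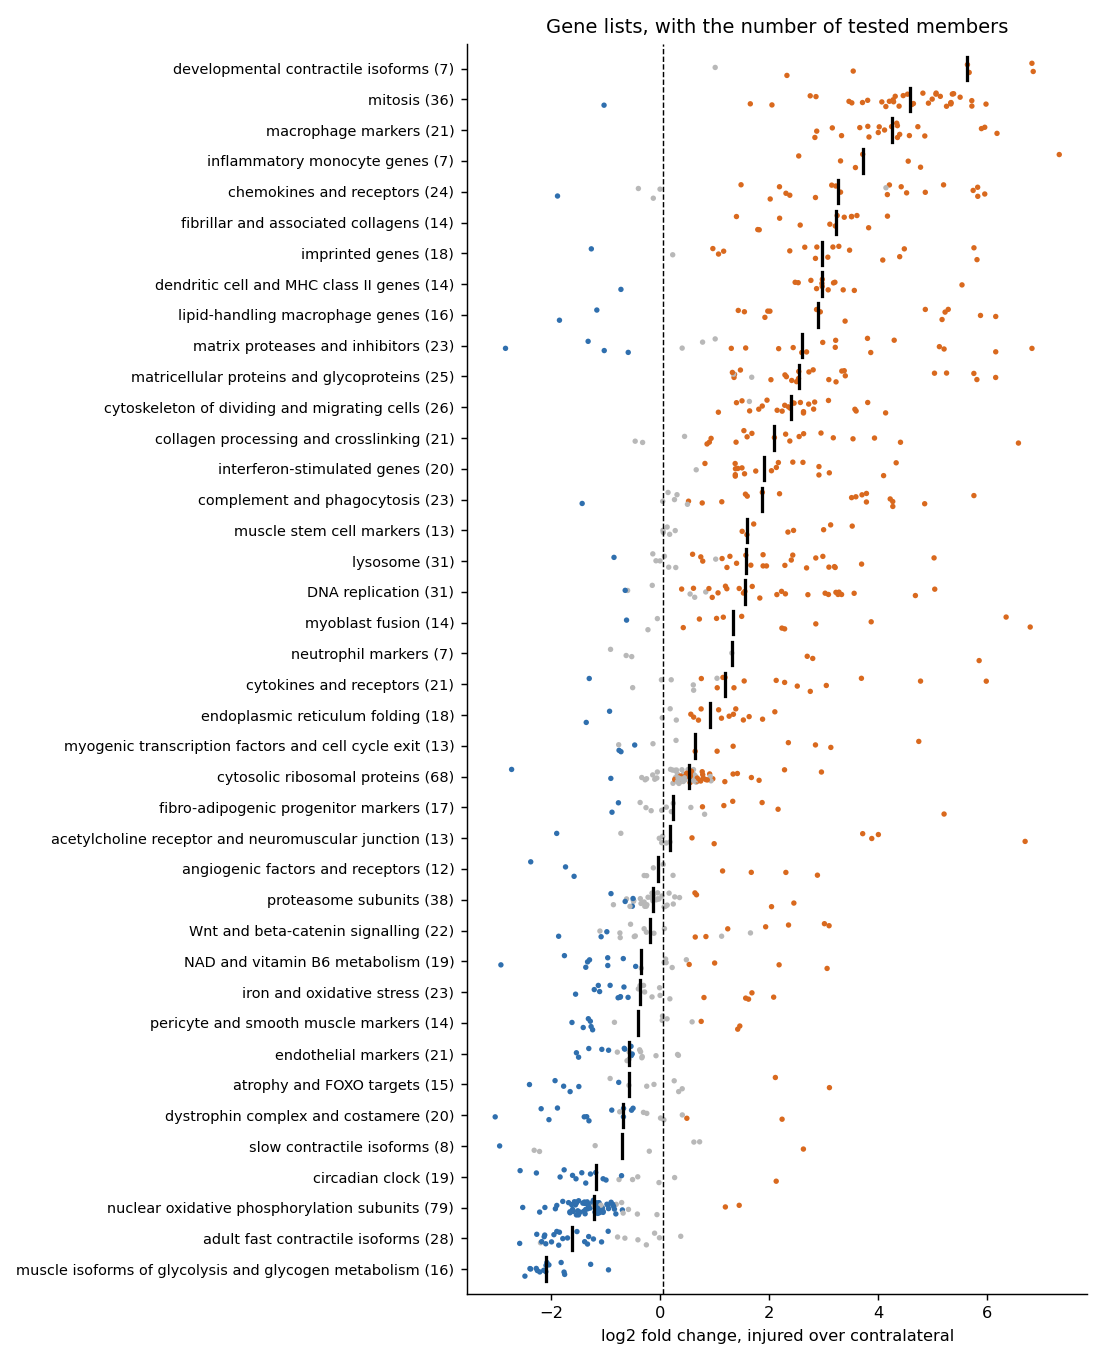
Log2 fold change of injured over contralateral muscle for the tested members of 40 gene lists. Points are genes (orange higher, blue lower, grey not called), black bars the list medians, and the dashed line the all-gene median of 0.05. With library totals as the only scaling this median is 0.99 and the raw medians of the slow contractile, dystrophin complex, Wnt, endothelial, angiogenic, pericyte, NAD, proteasome, atrophy and iron lists turn positive, while none changes side of the all-gene median.

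Matrix genes rose. All 14 of 14 fibrillar and associated collagens were higher, none with overlapping groups, and the median was 3.23. Col1a1, the main chain of type I collagen (ENSMUSG00000001506, chromosome 11, 94936224 to 94953042, plus strand), measured 6637, 2864, 3669, 2905 and 4760.1 CPM after injury and 226, 328 and 556 CPM in the contralateral leg. Injured replicate 1 was the highest (log2 fold change 3.61 ± 0.52, adjusted p = 4.28e-07). Col3a1, the collagen of loose early matrix, rose by 3.51, and Col12a1, which links fibrils, by 3.82. Lox, the enzyme that cross-links collagen, was among the genes with the smallest p and measured 200.0, 174, 247, 229 and 212 CPM in injured and 6.78, 9.28 and 16.1 CPM in contralateral muscle. Its injured values were tightly grouped (log2 fold change 4.41 ± 0.38, adjusted p = 1.13e-10). In all 18 of 21 processing genes were higher, among them P4ha3, a prolyl hydroxylase subunit (6.57), and Fkbp10, a collagen chaperone (3.17). The hydroxylase subunits P4ha1 and P4ha2 were not called.

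Matricellular proteins and glycoproteins rose in 23 of 25. Postn, or periostin, measured 566, 239, 324, 160.5 and 451 CPM in the injured muscles against 2.32, 5.29 and 13.4 CPM in the contralateral muscles. Tnc, or tenascin C, a protein of transient matrix, measured 162, 124, 200.2, 80.7 and 207 CPM after injury and 1.53, 3.73 and 9.39 CPM in the contralateral leg. Injured replicate 4 was the lowest for both and still far above the contralateral maximum (log2 fold change 5.81 ± 0.80, adjusted p = 1.96e-07 for Postn; log2 fold change 5.03 ± 0.55, adjusted p = 3.13e-09 for Tnc). Fn1, or fibronectin, rose by 3.22 and Sparc, a collagen-binding protein, by 2.32. Basement membrane genes changed less, 9 of 13 being higher with a median of 0.69: Lamb1, a laminin chain, rose by 1.67, and Col4a1, its network collagen, by 0.44 with overlapping groups. The call of Col4a1 was lost with the mouse as a block (adjusted p = 0.124) and without any 1 of contralateral replicates 1, 3, 4 and 6 and injured replicates 1, 3, 4 and 5 (adjusted p = 0.0503 to 0.123).

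Proteases and their inhibitors were split, with 16 of 23 higher and 4 lower. Mmp14, the membrane protease that opens collagen to migrating cells, measured 292, 113, 152, 107 and 189.6 CPM in injured and 12.6, 18.6 and 24.6 CPM in contralateral muscle (log2 fold change 3.22 ± 0.30, adjusted p = 2.48e-10). Mmp13, a collagenase, measured 81.1, 6.24, 10, 0.806 and 38.6 CPM in the injured muscles against 0, 0.112 and 0.613 CPM in the contralateral muscles. The injured muscles differed widely among themselves, replicate 1 being the highest, with replicate 4 just above the contralateral maximum (log2 fold change 6.82 ± 1.11, adjusted p = 3.17e-06). Timp1, an inhibitor of these enzymes, measured 43.9, 51.9, 66.4, 87.3 and 73.3 CPM after injury and 0.468, 1.87 and 3.58 CPM in the contralateral leg (log2 fold change 5.12 ± 0.54, adjusted p = 1.84e-09). Its relatives went both ways. Timp3 went down to 77.8, 131, 91.6, 94.4 and 86 CPM from 218 to 258 CPM (log2 fold change -1.32 ± 0.17, adjusted p = 6.47e-08). Timp4 fell by 2.83 on the log2 scale, and Timp2 rose by 1.30.

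The cells that make this matrix were less sharply marked. Among 17 markers of fibro-adipogenic progenitors 6 were higher and 2 lower (1 lower with the mouse as a block and without any single library except contralateral replicates 4 and 5 and injured replicate 2), beside 29.3% and 26.2% of all genes. Pdgfra, their receptor, measured 20.3, 15.1, 15.7, 12.2 and 15.8 CPM in injured and 6.39, 9.19 and 11.4 CPM in contralateral muscle (log2 fold change 0.78 ± 0.20, adjusted p = 0.00155). Ly6a, or Sca1 (log2 fold change 0.21 ± 0.20, adjusted p = 0.392), and Dcn, or decorin (log2 fold change -0.16 ± 0.18, adjusted p = 0.462), did not pass, with overlapping groups. Adam12, a protease of activated stroma, rose by 5.20. Tendon genes rose in 6 of 8, among them Thbs4 (2.50) and the tendon factor Scx (2.12).

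Growth factor pathways gave mixed counts. In the transforming growth factor and activin list 10 of 29 rose and 8 fell, beside 29.3% and 26.2% of all genes. Mstn, or myostatin, the brake on muscle growth, measured 1.09, 11, 7.1, 5.16 and 4.3 CPM in the injured muscles against 9.12, 32.2 and 54 CPM in the contralateral muscles. Only injured replicate 2 entered the contralateral range, which was itself wide (log2 fold change -2.44 ± 0.45, adjusted p = 2.31e-05). Gdf15, a stress-induced family member, rose by 3.88, and Smad3, a signal carrier, fell by 1.36 on the log2 scale. In the insulin-like growth factor system 7 of 15 rose and 3 fell. Igf1 measured 213, 123, 129, 89.3 and 163 CPM after injury and 37.9, 55.3 and 77 CPM in the contralateral leg (log2 fold change 1.30 ± 0.22, adjusted p = 7.96e-06). Irs2, a docking protein of insulin signalling, fell by 1.90.

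Of 17 Notch genes, 7 rose and 3 fell: Notch2 rose by 1.67 and Dll1, a ligand, by 1.45 with overlapping groups, while Dll4, the endothelial ligand, had a log2 fold change of -1.33 and lost its call with library totals. The call of Dll1 was lost with the mouse as a block (adjusted p = 0.0657) and without any 1 of contralateral replicates 1, 2, 4 and 6 and injured replicates 1, 2, 3 and 5 (adjusted p = 0.0508 to 0.175). For Wnt the counts were 7 and 3 of 22, or 5 lower without injured replicate 1, beside 29.3% and 26.2% of all genes. The Wnt median of -0.18 became 0.78 with library totals. Sfrp1, a secreted Wnt antagonist, measured 54.1, 33.2, 60.9, 16.1 and 35.2 CPM in injured and 4.25, 4.62 and 5.23 CPM in contralateral muscle (log2 fold change 3.10 ± 0.37, adjusted p = 1.54e-08). The pathway's feedback gene Axin2 did not pass (log2 fold change -0.73 ± 0.43, adjusted p = 0.147). In the list of fibroblast and hepatocyte growth factors 2 of 14 rose, Fgfr4 and Hgf, and 3 fell, including Fgf6, the ligand made by muscle (-1.61). Of the genes that respond to YAP and stretch 7 of 14 rose. Ankrd1, a stress protein of the sarcomere, measured 363, 349, 252, 374 and 723 CPM in the injured muscles against 6.78, 20.3 and 38.5 CPM in the contralateral muscles, with injured replicate 5 the highest (log2 fold change 4.15 ± 0.58, adjusted p = 2.57e-07). The cytoskeletal genes of moving and dividing cells rose in 25 of 26, with a median of 2.40. Tubb5, a tubulin, gave log2 fold change 2.28 ± 0.20, adjusted p = 1.17e-10, and Vim, or vimentin, log2 fold change 2.81 ± 0.33, adjusted p = 1.42e-08.

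Adult contractile genes fell. Their list joins forms of fast fibres with sarcomere genes that are not limited to fast fibres, such as Acta1 and Ttn. Of its 28 genes 20 were lower and 0 higher, against a background of 26.2% lower, and the median was -1.61. Myh4, the IIb myosin that makes up most of this muscle (ENSMUSG00000057003, chromosome 11, 67238029 to 67260446, plus strand), measured 7029.7, 18955, 11642, 5572 and 9937 CPM after injury and 37373, 43706 and 60718 CPM in the contralateral leg. Injured replicate 2 kept the most (log2 fold change -2.10 ± 0.30, adjusted p = 2.94e-07). Acta1, skeletal actin, measured 13093, 19018, 11437, 12141 and 14840.0 CPM in injured and 30734, 36706 and 43102 CPM in contralateral muscle, also highest in injured replicate 2 (log2 fold change -1.38 ± 0.23, adjusted p = 4.89e-06, a call lost with library totals). Ttn, or titin, the molecular spring of the sarcomere, gave log2 fold change -1.33 ± 0.32, adjusted p = 0.00065, and this call too was lost with library totals.

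Slow-fibre genes varied more between muscles than between groups. Myh7, the slow myosin, measured 0.937, 13.4, 0.789, 125 and 14.2 CPM in injured and 2.62, 9.84, 107, 0.857, 495 and 292 CPM in contralateral replicates 1 to 6. Contralateral replicates 3, 5 and 6 were high, as was injured replicate 4, and the gene did not pass (log2 fold change -2.31 ± 1.33, adjusted p = 0.14). Myh2, the IIa myosin of the adult fast list, was high in the same contralateral libraries and did not pass either (log2 fold change -2.19 ± 1.04, adjusted p = 0.0714). Without injured replicate 4 both passed (log2 fold change -4.35, adjusted p = 0.0184 for Myh7; log2 fold change -3.20, adjusted p = 0.0201 for Myh2). Myh2 also passed with the 11 libraries alone, by DESeq2 and by voom (adjusted p = 0.0408, 0.0497 and 0.015). The slow list of 8 had 1 gene higher, Tnni1 (2.63), and 1 lower, Myl3 (-2.94), with a median of -0.69 that became 0.26 with library totals. The call of Myl3 was lost with library totals, with the mouse as a block (adjusted p = 0.136) and without any 1 of contralateral replicates 3, 5 and 6 and injured replicates 1, 2, 3 and 5 (adjusted p = 0.0544 to 0.106), and without injured replicate 4 the list had 3 lower genes. Which part of the gastrocnemius each library came from was not tested.

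Calcium handling genes fell too, 17 of 21 being lower. Atp2a1, the calcium pump of fast fibres, measured 2599, 5437, 3394, 2554 and 3591 CPM in the injured muscles against 13142, 15970.4 and 19686 CPM in the contralateral muscles (log2 fold change -2.20 ± 0.23, adjusted p = 1.72e-09). Pvalb, or parvalbumin, the calcium buffer of fast fibres, measured 1858, 5609, 2837, 1519.8 and 3078 CPM after injury and 12869, 17295 and 21925 CPM in the contralateral leg (log2 fold change -2.53 ± 0.40, adjusted p = 2.36e-06). Ryr1, the release channel, measured 691, 1378, 1029, 1263 and 878 CPM in injured and 2679.8, 3708 and 4248 CPM in contralateral muscle (log2 fold change -1.74 ± 0.29, adjusted p = 5.95e-06). For each of these genes the injured muscles lay below the contralateral range and replicate 2 was the highest of them. The 2 that rose were Sln, a peptide that restrains the pump (4.32), and Casq2, the cardiac calcium store (3.28).

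Membrane channels were lower in 8 of 11. Clcn1, the chloride channel that keeps fibres from firing repeatedly, measured 52.2, 129, 82.6, 85.1 and 74.6 CPM in the injured muscles against 303, 434 and 559.9 CPM in the contralateral muscles (log2 fold change -2.37 ± 0.37, adjusted p = 2.08e-06). The calcium-activated potassium channel Kcnn3, a channel of immature muscle, rose by 3.22. In the dystrophin complex 12 of 20 were lower (median -0.67, and 0.27 with library totals). Nos1, its nitric oxide synthase, fell by 3.02 on the log2 scale, Dmd, or dystrophin, gave log2 fold change -0.67 ± 0.21, adjusted p = 0.00602 and a positive value with library totals, and Utrn, its relative that is spread along immature fibres, gave log2 fold change 0.58 ± 0.19, adjusted p = 0.0102. The groups did not overlap for Dmd or Utrn.

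Pairs of related proteins were set against each other within each library, which leaves scaling out. The 21 pairs join an adult muscle form to a form used in other tissues, in slow or heart muscle, or in development, and were chosen after the values were seen, so no test is given. In every pair the log2 ratio of counterpart to adult form was higher on average in injured muscle, by 1.27 to 9.09 with a median of 3.78, and in 19 pairs the groups did not overlap. All 21 adult forms were lower by the test above, and 16 counterparts were higher and 1, Cox7a2, was lower. For Chrng over Chrne the ratio was 4.67, 2.95, 4.56, 6.66 and 4.89 in the injured muscles and -6.99, -4.14 and -2.90 in the contralateral ones. For Myh3 over Myh4 it was -2.60, -5.26, -3.82, -3.16 and -3.50 and -13.57, -12.49 and -12.28. Injured replicate 2 had the lowest ratio in both. Outside the sarcomere, Rpl3 over Rpl3l, a ribosomal protein and its muscle form, went from -7.46, -6.73 and -6.34 to 0.23, -2.37, -0.35, -0.85 and -1.64, and Ckb over Ckm, the brain and muscle creatine kinases, moved by 5.16. In cytochrome oxidase Cox6a1 over Cox6a2 moved by 3.59, Cox8a over Cox8b by 3.37 and Cox7a2 over Cox7a1 by 1.48. The least moved was Utrn over Dmd (1.27), and the overlapping pairs were Tnnc1 over Tnnc2 and Atp2a2 over Atp2a1, whose counterparts are slow-fibre genes.

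**Figure D4:**
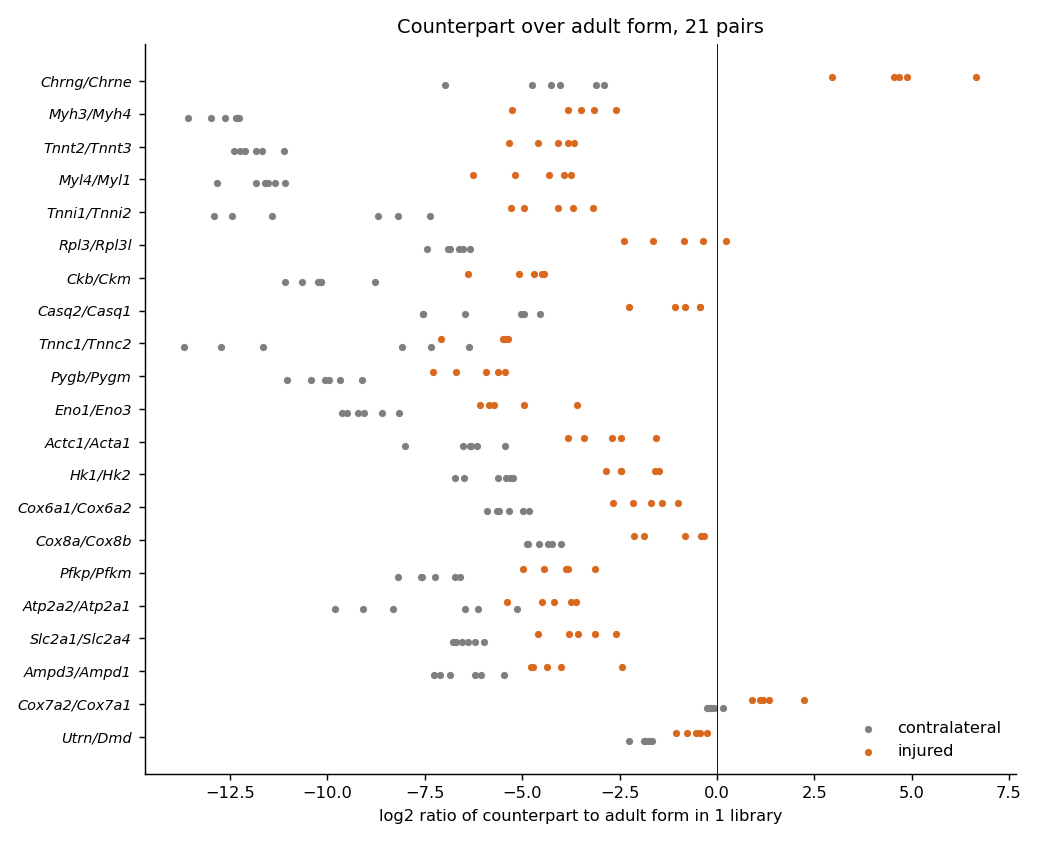
Log2 ratio of counterpart to adult form (horizontal axis, 0.5 count added to each) for 21 pairs in each library, in order of the shift. Orange points are the 5 injured and grey points the 6 contralateral muscles; the injured points lie to the right in every pair on average and overlap the grey points for Tnnc1/Tnnc2 and Atp2a2/Atp2a1.

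Genes of energy metabolism fell. Of 9 tested genes encoded by mitochondria, 8 were lower (median -2.26). The gene mt-Nd1, a subunit of complex I, measured 6252, 11189, 5974, 10820.3 and 11169 CPM after injury and 38089.8, 43173 and 47338 CPM in the contralateral leg (log2 fold change -2.24 ± 0.23, adjusted p = 1.13e-09). The gene mt-Co1, the catalytic subunit of cytochrome oxidase, measured 402, 923, 448, 982 and 841 CPM in injured and 2979.5, 4085 and 4461 CPM in contralateral muscle (log2 fold change -2.43 ± 0.26, adjusted p = 2.54e-09). Injured replicates 1 and 3 were the lowest in both genes, without overlap. Nuclear genes of oxidative phosphorylation were lower in 68 of 79 (median -1.21), and the 2 that rose, Cox6a1 and Cox8a, are the broadly expressed forms of the pairs above. Cox6a2, the muscle form, measured 514, 822, 399, 594 and 782 CPM in the injured muscles against 1843, 2638 and 3646 CPM in the contralateral muscles (log2 fold change -2.11 ± 0.24, adjusted p = 7.61e-09). In the pyruvate dehydrogenase and citrate cycle list 18 of 19 fell: Cs, or citrate synthase, measured 124, 142, 70.9, 59.1 and 148 CPM after injury and 202, 243 and 294 CPM in the contralateral leg (log2 fold change -1.16 ± 0.35, adjusted p = 0.00501, a call lost with library totals). Fatty acid oxidation fell in 17 of 20. Cd36, a fatty acid transporter that is also a receptor of phagocytes and was the lower gene of the complement and phagocytosis list, measured 25, 38.2, 29.7, 47.2 and 27.4 CPM in injured muscle and 60.2, 57.7, 107, 60.8, 139.8 and 115 CPM in contralateral replicates 1 to 6 (log2 fold change -1.43 ± 0.32, adjusted p = 0.000252, a call lost with library totals).

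Glycolysis was divided by isoform. All 16 of 16 muscle forms were lower (median -2.09). Pygm, muscle glycogen phosphorylase, measured 1685, 3611, 2335, 2000.0 and 2382 CPM in injured and 9857, 11681 and 16591 CPM in contralateral muscle (log2 fold change -2.37 ± 0.30, adjusted p = 5.17e-08). Pfkm, muscle phosphofructokinase, was among the 12 lower genes with the smallest p and measured 258, 493, 291, 242 and 367 CPM in the injured muscles against 1069.5, 1391 and 1641 CPM in the contralateral muscles (log2 fold change -2.08 ± 0.20, adjusted p = 3.84e-10). No injured value of either gene came near the contralateral range. Of 16 broadly expressed genes of glycolysis and the pentose phosphate path 9 were higher and 2 lower. Hk3, the hexokinase of blood cells, rose by 2.82, Eno1 by 2.02 and Pgd, of the pentose phosphate path, by 1.45. Ldhb, a lactate dehydrogenase of oxidative fibres, was lower with overlapping groups (-2.65).

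Creatine and adenylate genes fell in 8 of 12. Ckm measured 1623, 3319, 1802, 1575 and 2542 CPM after injury and 8180.0, 10035 and 12147 CPM in the contralateral leg (log2 fold change -2.21 ± 0.25, adjusted p = 6.88e-09). Gatm, the first enzyme of creatine synthesis, rose by 4.16. The NAD and vitamin B6 list, which covers the pathways of both compounds tested elsewhere in the series, had 9 lower and 4 higher of 19 (median -0.34, and 0.60 with library totals). Nmrk2, the muscle nicotinamide riboside kinase, measured 38, 57.1, 21.6, 102 and 71.2 CPM in injured and 173, 366 and 884 CPM in contralateral muscle. The contralateral muscles spread widely, and all lay above the injured ones (log2 fold change -2.92 ± 0.43, adjusted p = 5.47e-07). Nampt, which turns nicotinamide into its mononucleotide, measured 34.7, 47, 29.2, 23.5 and 41.9 CPM in the injured muscles against 60.1, 92.1 and 105 CPM in the contralateral muscles (log2 fold change -1.29 ± 0.25, adjusted p = 3.35e-05, a call lost with library totals). Nnmt, which methylates nicotinamide, rose by 2.18, and Pdxk, the pyridoxal kinase, by 0.53. The call of Pdxk was lost with the mouse as a block (adjusted p = 0.0726) and without any 1 of contralateral replicates 1, 4 and 6 and injured replicates 1 and 4 (adjusted p = 0.0594 to 0.0755), and 2 genes of the list were higher without contralateral replicate 4 or 6 or injured replicate 1.

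Amino acid synthesis held large changes in both directions, 7 higher and 5 lower of 19, beside 29.3% and 26.2% of all genes. Asns, asparagine synthetase, measured 6.56, 5.02, 4.74, 8.22 and 6.6 CPM after injury and 0, 0.153 and 0.895 CPM in the contralateral leg (log2 fold change 4.07 ± 0.50, adjusted p = 2.79e-08). Psat1, of serine synthesis, measured 11.7, 8.98, 14.1, 28.5 and 12.3 CPM in injured and 0.286, 1.19 and 1.87 CPM in contralateral muscle, with injured replicate 4 the highest (log2 fold change 3.71 ± 0.41, adjusted p = 4.68e-09). Slc7a5, a transporter of large amino acids, rose by 3.39, while Gpt2, an alanine transaminase, had -1.96. Atf4, the factor that drives several of these genes, was itself lower (-0.76, positive with library totals). Sterol and fatty acid synthesis gave 5 higher and 2 lower of 22, and 15 not called (3 higher without contralateral replicate 5).

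Of 18 folding genes of the endoplasmic reticulum 13 were higher: Hspa5, or BiP, measured 426, 383, 445, 558 and 515 CPM in the injured muscles against 248, 330.3 and 363 CPM in the contralateral muscles (log2 fold change 0.56 ± 0.14, adjusted p = 0.000742), and Pdia4, a disulfide isomerase, rose by 1.53. Cytosolic ribosomal proteins were higher in 30 of 68 (median 0.52), although counts of several are uncertain because of near-identical pseudogenes. The count was 19 with the mouse as a block, 19 without contralateral replicate 3 and 18 without injured replicate 4. Ribosome biogenesis gave 2 higher and 1 lower of 17. Among 38 proteasome subunits 4 rose and 5 fell, or 10 without injured replicate 4 (median -0.14, and 0.80 with library totals). Psmb8, an immunoproteasome subunit, measured 23, 18.1, 22.2, 16.1 and 29 CPM after injury and 3.31, 5.32 and 7.56 CPM in the contralateral leg (log2 fold change 2.04 ± 0.32, adjusted p = 2.05e-06), and Psmb9 and Psmb10 rose by 2.45 and 0.64.

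The ubiquitin ligases of muscle wasting were lower. Fbxo32, or atrogin-1, measured 62.2, 260.2, 116, 158 and 106 CPM in injured and 344, 487 and 909.7 CPM in contralateral muscle (log2 fold change -1.93 ± 0.33, adjusted p = 5.95e-06). Trim63, or MuRF1, measured 57.2, 197, 72.7, 88.3 and 97.3 CPM in the injured muscles against 204, 261 and 427 CPM in the contralateral muscles (log2 fold change -1.49 ± 0.35, adjusted p = 0.000518, a call lost with library totals). Both were highest in replicate 2 among injured muscles, without overlap. Their list had 6 lower and 2 higher of 15 (median -0.57, and 0.36 with library totals; 4 higher without injured replicate 4), the higher genes being the metallothioneins Mt1 (2.11) and Mt2 (3.10). Iron and oxidative stress genes gave 5 higher and 10 lower of 23, or 6 lower without injured replicate 3 (median -0.37, and 0.56 with library totals). Hmox1, which breaks down haem, measured 14.7, 9.9, 16.3, 23 and 9.59 CPM after injury and 2.04, 3.52 and 4.47 CPM in the contralateral leg (log2 fold change 2.08 ± 0.40, adjusted p = 3.73e-05). Slc40a1, the iron exporter ferroportin, was lower (-1.55).

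Clock genes were lower in 13 of 19 (median -1.18). Nr1d1, or REV-ERBα, the repressor of the clock loop, measured 22.7, 42.9, 31.2, 57 and 32.7 CPM in injured and 101, 128 and 157 CPM in contralateral muscle (log2 fold change -1.76 ± 0.27, adjusted p = 1.14e-06). Dbp, an output factor, measured 11.9, 25.4, 19.5, 15 and 14.4 CPM in the injured muscles against 29.3, 49.1 and 74.1 CPM in the contralateral muscles (log2 fold change -1.54 ± 0.35, adjusted p = 0.000339, a call lost with library totals). The ranges did not touch for either gene. Arntl, the activator of the loop, did not pass (log2 fold change 0.27 ± 0.30, adjusted p = 0.471). Of 12 lower clock genes with a start window 4 (33.3%) held the E-box CACGTG, beside 8.44% of all windows.

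Vessels, nerve and blood were read from their markers. Endothelial markers were lower in 10 of 21 and higher in 0 (median -0.57, and 0.37 with library totals). Kdr, the main receptor of vascular endothelial growth factor, measured 33.1, 16.3, 19.2, 27.2 and 30.4 CPM after injury and 46.1, 59.5 and 84.9 CPM in the contralateral leg (log2 fold change -1.31 ± 0.26, adjusted p = 6.64e-05, a call lost with library totals). Pecam1, the junction protein of all endothelium, measured 41.9, 33.5, 33.4, 30 and 27.9 CPM in injured and 27.4, 42.3 and 53.7 CPM in contralateral muscle. Its groups overlapped and it did not pass (log2 fold change -0.33 ± 0.17, adjusted p = 0.0918). It passed as lower without contralateral replicate 4 or injured replicate 1 (adjusted p = 0.0286 and 0.0426). With library totals it passed as higher (log2 fold change 0.62, adjusted p = 0.00174). Vegfa, the growth factor that fibres make, measured 16.2, 21.2, 8.55, 13.5 and 17.4 CPM in the injured muscles against 58.4, 72.3 and 110.1 CPM in the contralateral muscles. Every injured muscle lay far below the lowest contralateral one (log2 fold change -2.37 ± 0.31, adjusted p = 8.94e-08). Apln, a peptide of sprouting vessels, rose by 2.88. Angiogenic genes together gave 4 higher and 3 lower of 12, beside 29.3% and 26.2% of all genes (median -0.03, 0.05 with the median-ratio scaling and 0.91 with library totals).

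Pericyte and smooth muscle markers had 3 higher and 6 lower of 14 (median -0.40, and 0.56 with library totals). Rgs5, a pericyte signalling regulator, measured 114, 146, 93.1, 99.4 and 111 CPM after injury and 207, 266 and 349 CPM in the contralateral leg (log2 fold change -1.26 ± 0.19, adjusted p = 1.18e-06, a call lost with library totals). Acta2, the actin of smooth muscle and myofibroblasts, measured 302, 162, 278, 162 and 283 CPM in injured and 40.3, 81.6 and 165 CPM in contralateral muscle, with contralateral replicate 6 inside the injured range (log2 fold change 1.46 ± 0.34, adjusted p = 0.0004). Of 15 Schwann cell genes 5 were higher and 0 lower, beside 29.3% and 26.2% of all genes. The higher Schwann cell genes were 3 without contralateral replicate 1 or 4 and 2 without injured replicate 1. Ngfr, a receptor of Schwann cells that have lost their axon, measured 6.87, 3.65, 7.76, 3.87 and 2.5 CPM in the injured muscles against 0.224, 0.561 and 1.14 CPM in the contralateral muscles (log2 fold change 3.04 ± 0.47, adjusted p = 1.46e-06). Adipocyte genes gave 1 higher and 1 lower of 11 (median -0.53, and 0.40 with library totals). Red cell genes were lower in 5 of 5. Hbb-bs, a β-globin, measured 152, 72.5, 26.3, 64.3 and 94.7 CPM after injury and 175, 359 and 456 CPM in the contralateral leg, the groups not overlapping (log2 fold change -2.05 ± 0.44, adjusted p = 0.000171). For the qPCR reference genes that the study used, 1 of 3 was lower and none higher (median -0.29, and 0.64 with library totals).

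**Figure D5:**
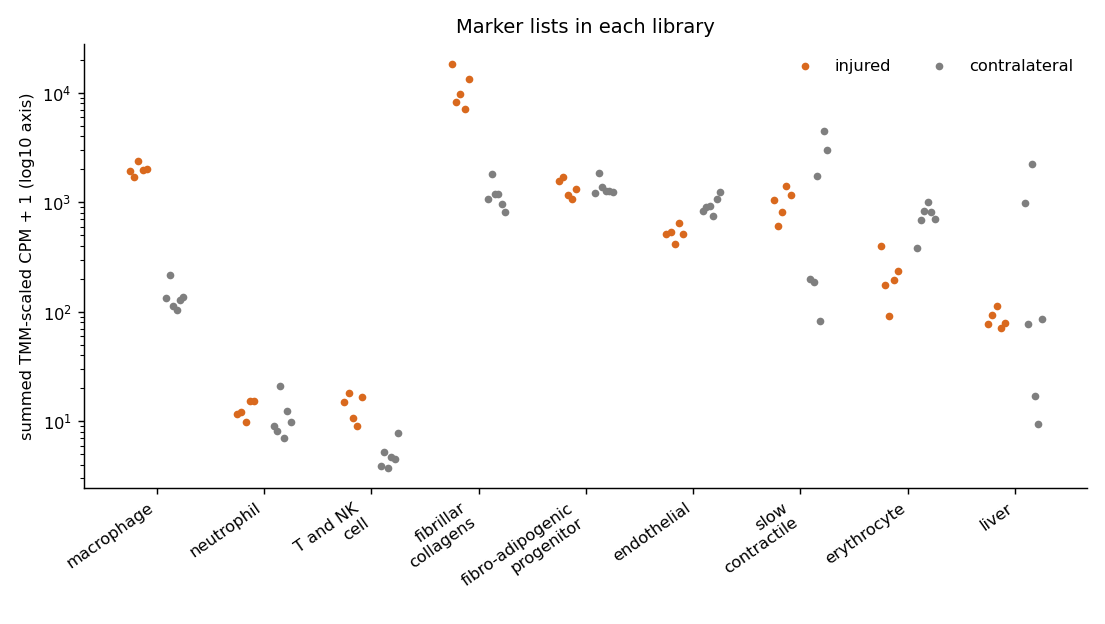
Summed TMM-scaled CPM of the members of 9 marker lists in each library, plus 1 on a log10 axis. Orange points are the 5 injured and grey points the 6 contralateral muscles. Macrophage and collagen sums separate the groups, neutrophil sums stay low, slow contractile sums are spread in both groups, and liver sums are high in 2 contralateral libraries.

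The response of the young vehicle muscle was set against that of aged vehicle muscle (23 to 25 months old, 3 injured and 6 contralateral libraries) and of young NAM/PN muscle (3 injured and 5 contralateral). The test asked, for each of the 12610 genes, whether the injury effect differed between the groups. Against aged vehicle 0 genes passed (0% of those tested), with 1223 at an unadjusted p under 0.05 and a smallest adjusted p of 0.272 by edgeR. DESeq2 called 22. For Pax7 the young minus aged difference of the log2 fold changes was 0.19 ± 0.50, for Myog 1.22 ± 0.79 and for Mmp14 1.33 ± 0.44, with adjusted p values of 0.946, 0.65 and 0.351. Differences of this size did not pass with 3 injured aged muscles, which does not show that the responses were alike. Against young NAM/PN 12 genes passed (0.0952%), and all 12 belong to the liver list. Their log2 fold changes were positive in young NAM/PN muscle. Without contralateral replicates 1 and 3, an alternative chosen after the values were seen, 0 passed, and with the mouse as a block 0 passed. Leaving out single libraries gave 21 to 27 genes without contralateral replicate 2, 4, 5 or 6 and 0 without contralateral replicate 1 or 3 or any 1 injured library. For Pax7 the young vehicle minus young NAM/PN difference was 1.09 ± 0.50 (adjusted p = 1).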

How the data were processed

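QuantSeq 3′ mRNA libraries were sequenced from gastrocnemius muscle. The authors aligned single reads with STAR and deposited raw read counts per Ensembl gene. Per the labels, HTSeq 2.16.2 and the GRCm38 build were used. The annotation release and the strand setting are not given in the sources used here, so reads of overlapping or antisense genes cannot be told apart. Of 27554 gene identifiers 27518 matched GENCODE M21 (GRCm38), which gave symbols and positions.

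All 38 libraries entered 1 model with a coefficient per group in edgeR 4.0.16 (R 4.3.3, limma 3.58.1): filterByExpr by group, TMM factors, glmQLFit and glmQLFTest, with Benjamini-Hochberg adjustment over 12610 genes at 0.05. A fold above 2 was tested with glmTreat. Standard errors are the absolute log2 fold change divided by the square root of F. Library totals and CPM cover counting and sampling of these muscles only, and no molecular identifiers were used. Alternatives were DESeq2 1.42.0, voom with quality weights, other scalings, filters and libraries, and a block by mouse. The mouse numbers in the labels pair 5 injured with 5 contralateral libraries, while the replicate numbers do not. Deviations from the group means correlated by -0.05, -0.05, 0.04, 0.04 and 0.22 within the mouse. The first and second styles of description are the 2 forms in which the labels name the mice. No 2 libraries of a group agreed within sampling noise (lowest chi-square per degree of freedom 6.86). The p-values of the main model rest on the spread within groups, estimated over all 38 libraries. That model counts the 2 legs of a mouse as separate.

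The members, the gene lists and the tests were chosen with earlier results of these data known. Named genes were the key genes of each list, the members of lists of at most 15 genes, up to 6 further members of any list per direction by the smallest p, and per direction the 12 genes with the smallest p, the largest fold (at least 10 CPM in the higher group) and the largest difference in mean CPM. The last 3 rules asked for an adjusted p under 0.05, no overlap between groups, a log2 fold change of 1 or more in size and 1 CPM or more on average. Ifit3, Ccnb2 and Ctss were added after their values were seen. Some genes of the lists are not reported here. Start windows came from RefSeq tables of GRCm38.p6 (18572 symbols). On simulated counts for this comparison (12610 genes), 172 of 183 tested genes changed by 2 on the log2 scale were recovered (94.0%) and 7 unchanged genes were called. With no change simulated 0 were called. Every simulated group had the mean levels of contralateral muscle, and the 200 changed genes went up and down in equal number. The shift in composition between injured and contralateral muscle was therefore not simulated, so the simulation does not test the scaling.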

Additional observations from a re-analysis of the deposited data

Results flagged for a closer look

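In 441 sets of values, 1 per named gene and group, 39 had a single library far from the others by Dixon's criterion at the 95% level, 16 in injured and 23 in contralateral muscle. Chance would set apart about 1 in 20 sets if the values were normally distributed, which was not tested for these CPM. Most of the values set apart were the highest of their set. For Hgf, Il1b and Lck in contralateral muscle, only a single library had any count. The number of sets is therefore not compared with that rate.

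Injured replicate 4 stood highest for 7 genes: Ache at 14.7 CPM, Atf4 at 398, Eno1 at 53.3, Itga7 at 206, Myh7 at 125, Psat1 at 28.5 and S100a8 at 2.9 CPM. Injured replicate 2 was highest for Amd2 (3.05 CPM), Lifr (67.8) and Trim63 (197) and lowest for Mcm5 (4.11 CPM). The imprinted genes Meg3 (1349 CPM) and Plagl1 (142 CPM) were highest in injured replicate 1, Cdkn1a (653 CPM) in replicate 3, and Ankrd1 (723 CPM) and Ccl11 (2.2 CPM) in replicate 5.

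Among contralateral muscles, replicate 2 was highest for 7 genes of matrix, division and other roles: Col1a1 at 556 CPM, Col3a1 at 247, Gatm at 2.46, Mdm2 at 91.7, Mki67 at 2.46, Top2a at 5.14 and Vim at 158 CPM. All but Mdm2 lay below every injured value. Replicate 1 was highest for Ccl8 (4.36 CPM), Cdh2 (1.45), Fgf6 (15.7) and P4ha3 (0.872). Replicate 3 was highest for Scx (13.5 CPM) and Hgf (0.307 CPM, the only value above 0) and lowest for Meg3 (70.8 CPM). Replicate 5 was highest for Cd74 (57.1 CPM), H19 (1822), Lifr (187) and Zbtb46 (19.9). Replicate 6 was highest for Ckb (18.5 CPM), Kit (1.17), Peg3 (33.9), Il1b (0.234) and Lck (0.468), the last 2 being the only values above 0.

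The injury response differed from that of young NAM/PN muscle, by the test of the difference in edgeR, for 12 liver genes. Young vehicle minus young NAM/PN differences in log2 fold change were -10.20 for Ahsg, -9.99 for Alb, -10.15 for Apoa1, -9.03 for Apoa2, -10.15 for Apom and -11.47 for Fgb. They were -11.09 for Gc, -10.47 for Mup3, -10.41 for Serpina1b, -11.42 for Serpina1c, -11.57 for Serpina1d and -11.09 for Ttr. Adjusted p ran from 0.0323 to 0.0448, and no gene passed when contralateral replicates 1 and 3 were left out. The lowest log2 fold change of the liver list in young vehicle muscle was -8.38. Each of these 12 genes therefore had a positive log2 fold change in young NAM/PN muscle, and both groups contribute to the differences.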

How the results depend on the processing

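The scaling and the choice of mice moved the counts most. With library totals 8326 genes were higher and 799 lower (4149 and 139 past a fold of 2), and with the second style of description alone, which leaves 2 injured and 3 contralateral libraries, 2150 and 1636 (835 and 126). Under the other alternatives every count of the injury response stayed within 1.5 times its value, from 2906 (first style alone) to 4109 (DESeq2) higher and from 2575 (first style alone) to 3719 (voom) lower. With the mouse as a replicate block it was 3373 and 3023 (38 libraries) or 3329 and 3028 (11 libraries), and the block ended no other call of a named gene than those given beside the results and that of Alb. Other list counts that the block moved by over 1.5 times moved by at most 3 genes. Leaving out single libraries gave 3430 to 3643 higher and 2996 to 3233 lower, and 1644 to 1810 and 666 to 913 past a fold of 2. The difference from aged vehicle gave 0 to 0 genes without single libraries and 22 by DESeq2. The difference from young NAM/PN gave 1 gene by DESeq2, 7 with library totals, 19 without a filter, and 0 with the block, with voom, with either style alone and without contralateral replicates 1 and 3. Without single libraries it gave 0 to 27.

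Of 221 named genes tested, 18 turned positive with library totals: Ache (0.94), Atf4 (0.17), Axin2 (0.20), Dcn (0.77), Dmd (0.27), Lamp1 (0.81), Lyve1 (0.53), Mdm2 (0.59), Mef2c (0.19), Mef2d (0.22), Musk (0.22), Myf6 (0.79), Pecam1 (0.62), Rac1 (0.33), S100a8 (0.41), S100a9 (0.014), Ung (0.29) and Zbtb46 (0.22). With library totals 17 genes called lower also lost their call: Acta1 (-0.45), Aurka (-0.095), Ccl11 (-0.99), Cd36 (-0.49), Cs (-0.22), Dbp (-0.60), Dll4 (-0.39), Kdr (-0.35), Lifr (-0.37), Lpl (-0.90), Myl3 (-2.04), Nampt (-0.36), Rgs5 (-0.33), Slc38a4 (-0.33), Syngr1 (-0.22), Trim63 (-0.59) and Ttn (-0.39), with adjusted p from 0.0573 to 0.811. Of the 18 genes that turned positive, Ache, Dcn, Lamp1, Mdm2 and Pecam1 passed as higher (adjusted p = 0.00892, 0.000848, 6.58e-08, 0.0243 and 0.00174). Arntl, Cd163, Ly6a, Met and Rapsn, positive but not called in the main model, also passed as higher. Of 202 named genes called, 32 lost the call with the second style alone and 14 with the first. Under all other alternatives 5 genes changed sign, 4 of them not called. Ache was 0.043 with the 11 libraries alone, 0.076 by DESeq2, 0.074 with median-ratio scaling, 0.24 with the second style and 0.0033 by voom, and -0.19 to 0.13 without single libraries. Met was -0.14 with the first style and -0.042 to 0.19 without single libraries. Myf6 was 0.10 without contralateral replicates 1 and 3, 0.26 with the second style and -0.38 to 0.046 without single libraries. Rapsn was -0.018 without contralateral replicates 1 and 3, -0.0079 with the block and -0.015 to 0.084 without single libraries. The called gene was Pdxk, at -0.056 with the second style. The cause of these changes was not tested. Counts limit the low genes: those with 3 or fewer contralateral counts have no fold in the text.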
